A study of Mus musculus with 6 samples.

Results

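The contractile and myofibroblast genes studied here are 34 of the 22162 genes in the deposited table, chosen by name as genes of the actin and myosin apparatus and of the serum response factor (SRF) and myocardin programme that drives it. All 34 were found, each in 1 row, and 31 of them reached 1 c.p.m. (16.2 normalized counts) in at least 3 of the 6 libraries and were tested. Actc1, Des and Myocd did not reach it. The cells were mouse skin fibroblasts (MSFs), isolated from dorsal skin of a FASST mouse on the FVB/N background and cultured at 3% oxygen. FASST mice carry a tamoxifen (TAM)-dependent Cre-ERT2 under a regulatory sequence of the pro-alpha 2(I) collagen gene and a p27Kip1 allele behind a lox-stop-lox cassette at the ROSA26 locus, so both groups carry both alleles. Of the 6 poly(A) RNA libraries, 3 came from MSFs given 10 µM TAM over 48 h, which the labels call senescent, and 3 from MSFs given only the ethanol (EtOH) vehicle, called non-senescent. TAM itself was given to 1 group only, so the drug and the activation of p27Kip1 cannot be told apart here. The methods describe an MSF line from 1 mouse and the labels name no separate animals, so p-values measure the spread between these libraries, which may be technical.

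Smooth muscle cells and myofibroblasts contract by sliding actin filaments along myosin, a motor that is switched on when myosin light chain kinase phosphorylates its regulatory light chain. Calponins, tropomyosins and caldesmon sit along the actin filament, α-actinins and filamin tie filaments together, and vinculin and zyxin couple them to adhesions. Many of these genes carry a CArG box, the binding site of SRF, whose cofactors Mkl1 and Mkl2 (also called MRTF-A and MRTF-B) are held by unpolymerized actin and whose cofactor myocardin is particular to cardiac and smooth muscle. Fibroblasts cultured on plastic are known to take on part of this programme.

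Directions are given for the libraries as labelled. Cdkn1b, the mouse gene for p27Kip1, had 1427, 3074 and 1853 normalized counts in the libraries labelled EtOH 1, 2 and 3 and 1699, 1520 and 1630 in those labelled TAM 1, 2 and 3 (log2 fold change −0.32, SE 0.28, adjusted p = 0.677, limma, where SE is the standard error). Whether reads of the transgene were assigned to this gene is not given in the sources used here. The normalized counts summed to between 14952367 and 17314953 per library, and the table does not state the reads behind them. Among the contractile genes the library labelled TAM 2 stood apart, and some results below are given with and without it. Where no library is named as left out, all 6 were used. Over all genes tested, TAM 2 was the highest library for 25.7% and EtOH 2 for 24.5%. The 12 fibroblast markers held 9.39 to 11.3% of the normalized counts in the libraries labelled EtOH and 7.77, 4.72 and 6.33% in those labelled TAM 1, 2 and 3, and Col1a1 was the highest of them. Of the 12, 6 had all TAM values below all EtOH values (11.4% of all genes tested). Thy1 was the 1 with all TAM values above (9.19% of all genes). Markers of other cell types that dorsal skin could hold were mostly low, but several differed between the groups. All 14 skeletal muscle markers together summed to between 46.6 and 73.4 normalized counts, 11 of them stayed under 1 c.p.m. in every library, and Tnnt3 was the highest. The 9 keratinocyte markers summed to 66.4 to 127.3, led by Krt10, and the 7 macrophage markers to 186 to 486.7, led by Cd68. Cd68 was highest in the library labelled EtOH 2, with 352 normalized counts. By contrast, Lyz2 had 46.77, 35.25 and 62.87 in the libraries labelled EtOH and 103, 143 and 159 in those labelled TAM. Csf1r had 75.7, 73.4 and 74.3 against 113, 226 and 90.6, so neither of these genes overlapped between groups. The 7 endothelial markers summed to 241.2, 92.5 and 136.5 in the libraries labelled EtOH 1, 2 and 3 and to 24.6, 28.4 and 45.2 in those labelled TAM, so the groups did not overlap. Their highest gene Kdr, a VEGF receptor, differed by −3.71 on the log2 scale (SE 0.54, adjusted p = 0.0608) and was called lower with the block (adjusted p = 0.0488). Kdr made up most of the sums in the libraries labelled EtOH, with 204.68, 68.69 and 116.28 normalized counts. Of the 7 markers, 5 stayed under 1 c.p.m. in every library. Among these, Vwf went the other way. It had 0.55, 6.65 and 4.34 in the libraries labelled EtOH and 8.9, 8.36 and 10.11 in those labelled TAM. The sums thus cannot show whether the endothelial markers moved as a set. The part of these marker differences in the levels of the contractile genes was not tested. The 8 pericyte markers summed to 1281 to 3764 in 5 libraries and to 18522 in the library labelled EtOH 2, where Ndufa4l2 alone had 17572. Single pericyte markers differed in direction. Kcnj8 was at 0 in all 6 libraries, Notch3 was highest in EtOH 2, and Mcam, Rgs5 and Cspg4 were highest in TAM 2. Mcam had 48.4, 25.7 and 47.8 normalized counts in the libraries labelled EtOH and 71.6, 268 and 86.0 in those labelled TAM, so its groups did not overlap. The part of the pericyte markers in the levels of the contractile genes was not tested either. In bulk RNA, fewer cells of a type and less RNA per cell cannot be told apart.

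The CArG box was looked for in the promoters of the listed genes. RefSeq promoters of GRCm38.p6, 300 bases from 250 before to 50 after the annotated start, were matched for 30 of the 34 genes (36 promoters), and Actg2, Tagln, Myh11 and Myocd had no entry. The CArG box was searched as CC, 6 bases that are each A or T, and GG, a form that reads alike on both strands. A perfect box stood in the promoter of 7 of the 30 genes (23.3%), against 1.81% of the 27025 genes in the promoter table. With 1 mismatch allowed among the 6 central bases, 9 of the 30 genes (30.0%) held a box, against 11.3%. The genes were listed as SRF and myocardin targets, so this excess is what the list was chosen for, and a match is not a measured site. Of the 17 boxes found, 8 were perfect. The 250 bases before the start are shown for 6 genes on which the results below turn, with boxes in capitals. The first 3 are muscle actins with boxes that stood at very different levels in these cells, and Myl9 and Srf are genes with perfect boxes. Mylk, whose groups did not overlap, had no box in its 1 matched promoter. That promoter begins at 34784700 of GRCm38.p6, while the counted locus begins at 34745295 of mm9. Other starts of Mylk were not searched.
Acta2 (chr19:34255374-34255623, minus strand): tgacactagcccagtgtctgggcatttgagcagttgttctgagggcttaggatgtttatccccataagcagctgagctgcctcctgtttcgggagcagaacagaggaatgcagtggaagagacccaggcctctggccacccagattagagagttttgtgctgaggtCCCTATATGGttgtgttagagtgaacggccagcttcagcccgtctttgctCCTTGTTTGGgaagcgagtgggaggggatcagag
Acta1 (chr8:123894776-123895025, minus strand): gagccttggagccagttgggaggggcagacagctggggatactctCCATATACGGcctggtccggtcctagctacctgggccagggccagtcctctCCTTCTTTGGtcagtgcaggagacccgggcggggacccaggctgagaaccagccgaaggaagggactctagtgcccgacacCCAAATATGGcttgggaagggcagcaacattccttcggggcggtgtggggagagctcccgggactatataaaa
Actc1 (chr2:114052876-114053125, minus strand): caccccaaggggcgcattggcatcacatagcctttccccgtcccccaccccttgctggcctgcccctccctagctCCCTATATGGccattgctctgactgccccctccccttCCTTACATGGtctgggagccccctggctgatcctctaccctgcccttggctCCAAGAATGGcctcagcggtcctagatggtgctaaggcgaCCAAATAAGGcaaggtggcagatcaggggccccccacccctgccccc
Myl9 (chr2:156775214-156775463, plus strand): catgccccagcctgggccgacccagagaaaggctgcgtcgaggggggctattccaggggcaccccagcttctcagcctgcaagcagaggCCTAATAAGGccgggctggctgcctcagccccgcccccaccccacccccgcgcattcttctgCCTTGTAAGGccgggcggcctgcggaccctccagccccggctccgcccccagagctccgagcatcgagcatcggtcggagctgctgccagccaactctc
Srf (chr17:46556163-46556412, minus strand): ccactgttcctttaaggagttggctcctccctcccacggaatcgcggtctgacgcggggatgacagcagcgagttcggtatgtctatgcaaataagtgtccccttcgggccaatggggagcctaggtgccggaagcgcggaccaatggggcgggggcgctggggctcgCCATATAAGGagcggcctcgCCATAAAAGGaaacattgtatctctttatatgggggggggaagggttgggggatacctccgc
Mylk (chr16:34784700-34784949, plus strand): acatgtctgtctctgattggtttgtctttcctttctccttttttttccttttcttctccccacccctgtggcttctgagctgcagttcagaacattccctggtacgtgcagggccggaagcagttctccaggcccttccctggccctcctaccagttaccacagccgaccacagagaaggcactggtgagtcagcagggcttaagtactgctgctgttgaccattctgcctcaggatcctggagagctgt
Acta2 held 2 boxes with 1 mismatch each, beginning 84 and 34 bases before the start. Acta1 held 1 perfect box at 73 bases and 2 with a mismatch, and Actc1 a perfect box at 47 bases and 3 with a mismatch. Srf held 2 perfect boxes, at 82 and 62 bases, and Myl9 a perfect box at 161 bases and 1 with a mismatch at 99. The other genes with a box were Cnn2, Vcl and Myl6 with perfect ones and Mkl1 with 1 mismatch, and no box was found in the promoters of Cnn1, Mylk or the other genes matched.

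Per kilobase of exon, Acta2, the actin of smooth muscle and the usual marker of myofibroblasts, was the highest of the 34 genes in the libraries labelled EtOH, with 18765 ± 11166 (SD, n = 3) normalized counts per kb. It stood at place 22 among the genes of the table with an annotated exon length, ahead of the non-muscle actin Actb with 17883 ± 8995 (SD, n = 3), and the spread of these neighbours overlapped. Myl6, the essential myosin light chain, followed with 15952 ± 2144 (SD, n = 3) and Myl9, the regulatory light chain, with 7564 ± 4338 (SD, n = 3). Tagln, a small actin-binding protein of smooth muscle, had 7439 ± 2153 (SD, n = 3), also within the spread of Myl9. The list spanned a wide range. Actg2, the γ-actin of smooth muscle, had 623 ± 168 (SD, n = 3), Cnn1, smooth muscle calponin, 272 ± 78.1 (SD, n = 3), and Myh11, smooth muscle myosin heavy chain, 24.3 ± 9.98 (SD, n = 3) normalized counts per kb. Skeletal actin Acta1 stood at 27.5 ± 12.2 (SD, n = 3) per kb and Mylk at 13.8 ± 7.76 (SD, n = 3). Myocd, myocardin itself, had 2.57 to 7.89 normalized counts per library labelled EtOH and 4.18 to 27.64 per library labelled TAM. Cardiac actin Actc1 was at 0 in all 6 libraries and its promoter held 4 boxes. Desmin (Des), an intermediate filament protein of muscle, stayed under 1 c.p.m. in every library. In the libraries labelled TAM, Acta2 was again the highest of the list, with 29521 ± 22954 (SD, n = 3) per kb.

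No contractile gene passed an adjusted p under 0.05 in either direction in the comparison of TAM with EtOH, and the smallest adjusted p was 0.147, for Mylk (limma on log2(normalized counts + 1), Benjamini-Hochberg over 11877 genes). Among all genes tested, 20 (0.168%) were called higher and 9 (0.0758%) lower. With the replicate number as a block those shares were 1.00% and 0.615%, and still no contractile gene was called (smallest adjusted p = 0.0622, Mylk). At an unadjusted p under 0.05, 4 of the 31 genes were higher and 0 lower without the block, and 4 and 0 with it, against 6.67% higher and 6.70% lower of all genes, and 8.64% and 8.32% with the block. The estimates leaned upward. Estimates above 0 were seen for 27 of the 31 genes (87.1%) against 46.2% of all genes tested, with a median of 0.50 against −0.033. That lean rested largely on 1 library, since without the library labelled TAM 2 the median was 0.10 and 19 of the 31 were positive, while without the library labelled EtOH 1 the median was 0.92 and 28 were positive.

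**Figure D1:**
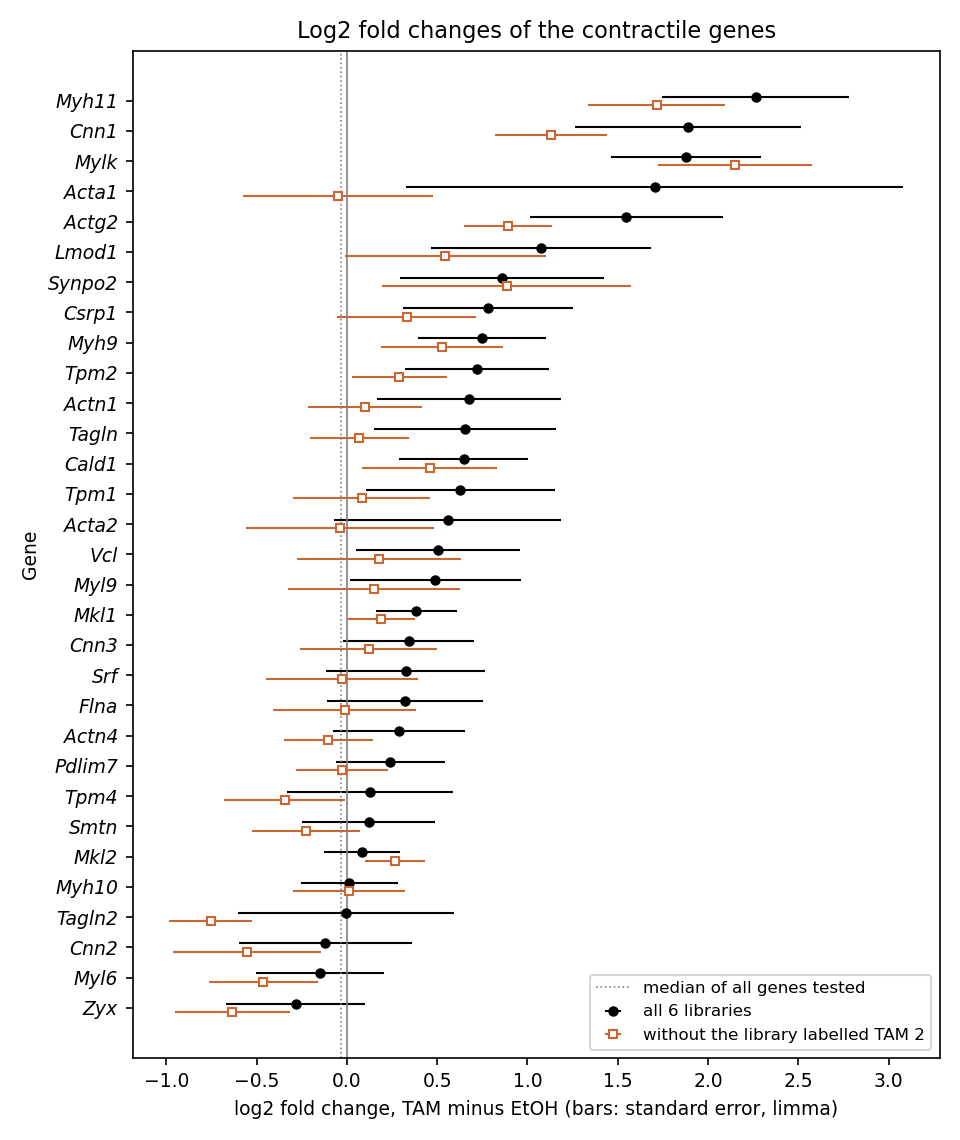
Log2 fold change of the 31 tested contractile genes, TAM minus EtOH (x axis, log2 of normalized counts + 1), with SEs from limma. Filled points use all 6 libraries and open squares leave out the library labelled TAM 2. Myh11, Cnn1, Mylk and Actg2 are among the 19 of 31 genes that lie to the right of 0 without TAM 2, whereas Acta1 drops from 1.70 to −0.049. The dotted line marks the median of all genes at −0.033.

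The library labelled TAM 2 held the highest value of the 6 for 26 of the 31 genes (83.9%), which was so for 25.7% of all genes tested. In it the 34 genes together made up 3.61% of all normalized counts, against 1.65 and 1.80% in the libraries labelled TAM 1 and 3. In the libraries labelled EtOH 1, 2 and 3 they made up 2.19, 1.11 and 1.30%. The value in the library labelled TAM 2 was at least 2 times the mean of the other 2 libraries of its group for 20 of the 31 genes, with a median ratio of 2.07. The library labelled EtOH 1 was the highest of its own group for 25 of the 31 (80.6%, against 28.8% of all genes). For 18 of the 31 genes, the libraries labelled TAM 1 and TAM 3 both lay within the range of the 3 labelled EtOH. For this count, and for that of genes at least 2 times higher in TAM 2, the share over all genes tested was not computed. The fibroblast markers had their smallest share, 4.72%, in the same library labelled TAM 2, and its part in the levels of the contractile genes was not tested. Not every marker followed this share. In TAM 2, Col1a2, Col3a1, Pdgfra, Dcn, Lum and Fstl1 were at their lowest of the 6 libraries. Thy1, with 4122 normalized counts, and S100a4, with 15706, were at their highest.

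**Figure D2:**
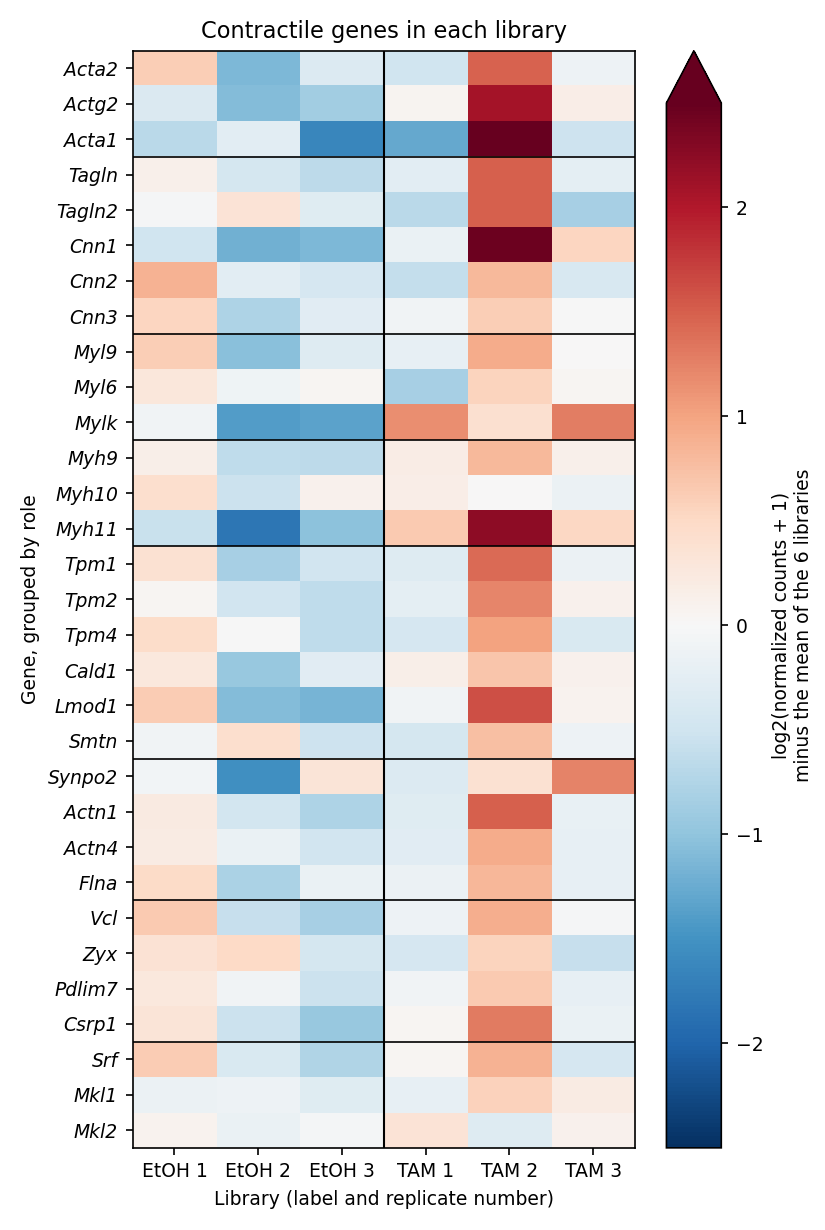
Each row is a tested contractile gene, grouped by role, and each column a library. Colour is log2(normalized counts + 1) minus the gene's mean over the 6 libraries, and values above 2.5 share the darkest red. The column of TAM 2 is red for nearly every gene and EtOH 1 is the reddest of its group, whereas Mylk is red in all 3 TAM columns.

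**Figure D3:**
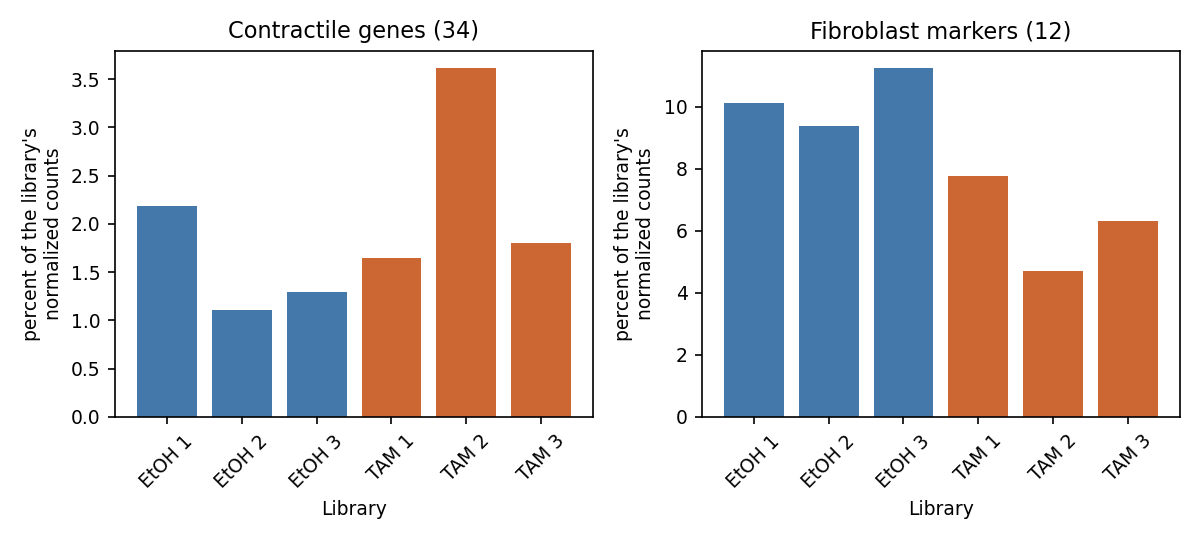
Bars give the percent of each library's normalized counts taken by the 34 contractile genes (left) and the 12 fibroblast markers (right), with axes from 0. TAM 2 has the highest contractile share, 3.61%, and the lowest fibroblast marker share, 4.72%. The share is a sum, and single markers such as Thy1 and S100a4 were highest in TAM 2.

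The genes followed each other from library to library. Across the 6 libraries, 2 groups of 3, 23 of the 31 genes had a Pearson's r above 0.8 with the median profile of the other genes of the list, as a description. Tpm1 followed it most closely (r = 0.98), then Lmod1 and Actn1 (both 0.97), Csrp1 (0.97) and Tagln (0.96). Mylk (0.41), Myh10 (0.35), Synpo2 (0.33) and Mkl2 (−0.39) followed it least. The share of all genes tested with an r above 0.8 with the median profile was not computed. The genes of the list also varied more than most, with a median SD over the 6 libraries of 0.66 on the log2 scale, against 0.35 for all genes tested.

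The libraries also carry replicate numbers, and the direction depended on the pair. Between the libraries numbered 1, the contractile genes had a median log2 difference (TAM minus EtOH) of −0.50 and 6 of 31 were positive. Between those numbered 2 the median was 1.62 and 30 of 31 were positive, and between those numbered 3 it was 0.39 with 27 of 31 positive. Over all genes tested the same medians were −0.051, 0.00099 and −0.053. For 21 of the 31 genes the difference was negative in pair 1 and positive in pairs 2 and 3. Only 5 genes, Actg2, Cnn1, Mylk, Myh9 and Myh11, were higher in the TAM library of all 3 pairs. The shares of all genes tested with these patterns over the 3 pairs were not computed.

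**Figure D4:**
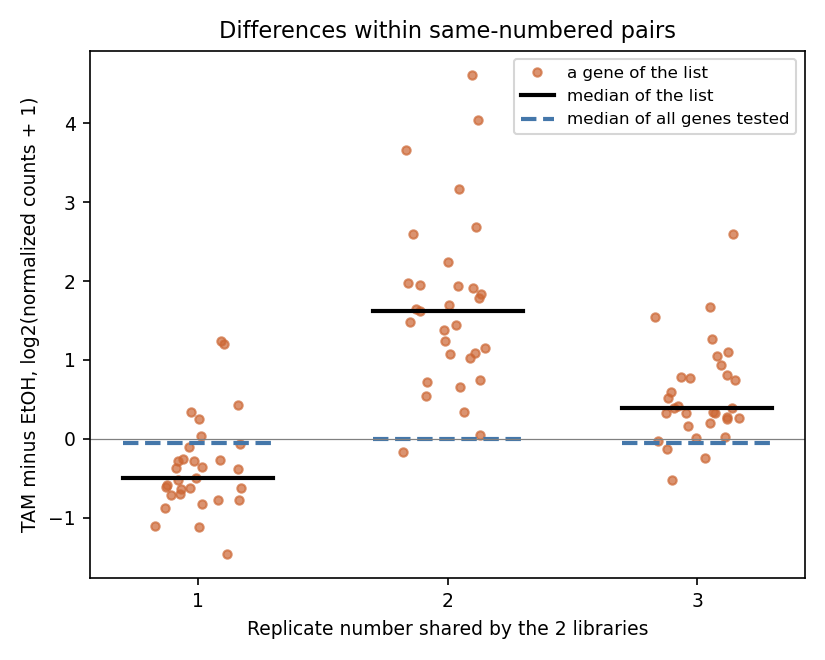
Points are the 31 contractile genes, placed by the difference of log2(normalized counts + 1) between the TAM and EtOH libraries (y axis) that share a replicate number (x axis). The median of the list (black) is −0.50, 1.62 and 0.39 in pairs 1, 2 and 3, and the median of all genes tested (dashed) lies near 0 in each.

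The 3 libraries labelled TAM lay all above the 3 labelled EtOH for 4 of the 31 genes (12.9%), near the 9.19% of all genes tested that did so, and for none lay all below (11.4% of all genes). These were Actg2, Cnn1 and Myh11, genes typical of smooth muscle, and Mylk. They were also the 4 with an unadjusted p under 0.05. Mylk and Myh11 stayed under it with any 1 library left out, whereas Actg2 did not when EtOH 2 or EtOH 3 was left out, and Cnn1 did not when EtOH 2 was. Without the library labelled TAM 2 all 4 stayed under it and Tagln2 joined them with a lower value. Myh11 (chromosome 16 of mm9, 14194620 to 14291501) had 227, 94.4 and 163 normalized counts in the libraries labelled EtOH 1, 2 and 3 and 523, 1568 and 479 in those labelled TAM 1, 2 and 3. Its lowest TAM value was thus above its highest EtOH value by more than the whole EtOH range. On the log2 scale the groups differed by 2.26 (SE 0.52, adjusted p = 0.156, limma), the largest of the list, and 1.72 (SE 0.38) without the library labelled TAM 2. Myh9 and Myh10, the heavy chains of non-muscle myosin IIA and IIB, did not share this pattern. Myh9 had 54074, 31472 and 31066 normalized counts in the libraries labelled EtOH and 55151, 85602 and 52999 in those labelled TAM, so that the groups overlapped through EtOH 1 (log2 fold change 0.75, SE 0.35, adjusted p = 0.424). Myh10 had means of 4647 ± 1467 (SD, n = 3) and 4539 ± 489 (SD, n = 3), a difference of 0.013 on the log2 scale (SE 0.27).

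Mylk, the kinase that activates smooth and non-muscle myosin (chromosome 16, 34745296 to 35002520), was 1 of 5 tested genes whose highest value was not in the library labelled TAM 2. Its normalized counts were 242, 97.2 and 102 in the libraries labelled EtOH 1, 2 and 3 and 575, 338 and 623 in those labelled TAM 1, 2 and 3. TAM 2 was here the lowest of its group, and all 3 pairs differed upward, by 1.24, 1.79 and 2.60 on the log2 scale. Over the 3 libraries of each group this came to 1.88 (SE 0.41, adjusted p = 0.147), with SE 0.30 and an adjusted p of 0.0622 with the block, and leaving out any 1 library kept it between 1.65 and 2.30. Its substrate Myl9 had 14353, 4527 and 7488 normalized counts in the libraries labelled EtOH 1, 2 and 3 and 8074, 17747 and 9412 in those labelled TAM, so EtOH 1 exceeded 2 of the TAM libraries (log2 fold change 0.49, SE 0.48). Myl6 stood at −0.15 on the same scale (SE 0.36). A near copy, Gm8894, matched 68.6% of the Myl6 transcript at 95% identity or more, so its counts are uncertain.

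**Figure D5:**
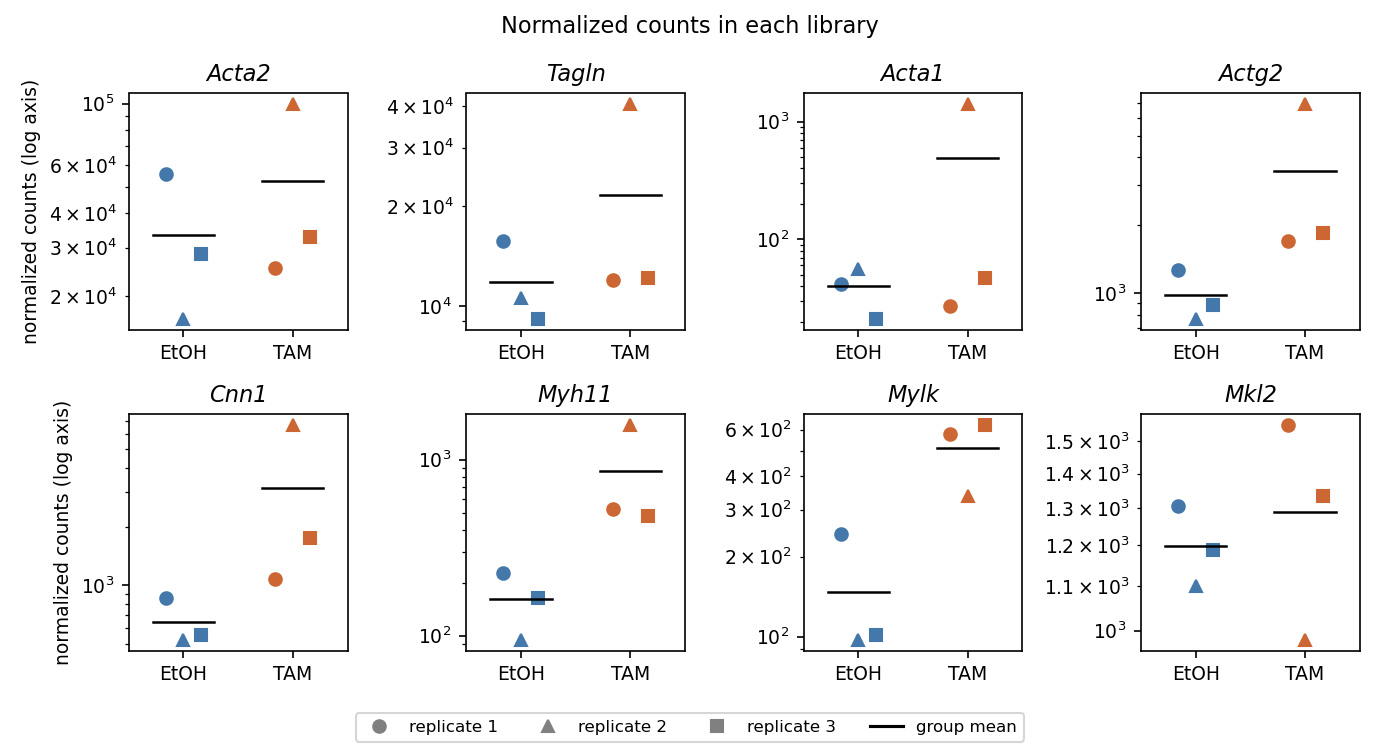
Normalized counts on a log axis for 8 contractile genes, with a symbol for each replicate number and a line at the group mean. In Actg2, Cnn1, Myh11 and Mylk all TAM points lie above all EtOH points. In Acta2, Tagln and Acta1 only TAM 2 (triangle) does, and in Mkl2 TAM 2 is the lowest of all.

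Among the muscle actins, Acta2 (chromosome 19, 34315580 to 34329826) had 55325, 16500 and 28438 normalized counts in the libraries labelled EtOH 1, 2 and 3. In those labelled TAM 1, 2 and 3 it had 25369, 99588 and 32774. The 2 TAM libraries other than TAM 2 lay inside the EtOH range, and the log2 fold change of 0.56 (SE 0.63, adjusted p = 0.750) was smaller than its error. Without the library labelled TAM 2 it was −0.038. Actg2 (chromosome 6, 83462899 to 83486259), whose protein differs from that of Acta2 by few residues, had 1267, 765 and 887 normalized counts in the libraries labelled EtOH and 1701, 6894 and 1836 in those labelled TAM. Every TAM value was above every EtOH value, with a log2 fold change of 1.55 (SE 0.53, adjusted p = 0.286), and of 0.89 (SE 0.24) without TAM 2. Per 100 normalized counts of Acta2 there were 2.29, 4.64 and 3.12 of Actg2 in the libraries labelled EtOH 1, 2 and 3 and 6.71, 6.92 and 5.60 in those labelled TAM, so this ratio of table values did not overlap between groups either. Acta1 (chromosome 8, 126415669 to 126418651), the actin of skeletal muscle, had 42.0, 56.2 and 21.1 normalized counts in the libraries labelled EtOH and 27.2, 1404 and 46.5 in those labelled TAM. A single library thus carried its mean difference, with 38.1 times the mean of TAM 1 and 3, and the log2 fold change was 1.70 (SE 1.38) with it and −0.049 without it. Per 100 counts of Acta2 there were 1.41 of Acta1 in that library and 0.0742 to 0.341 in the other 5. The skeletal muscle markers summed to 57.7 normalized counts in TAM 2 and 46.6 to 73.4 elsewhere, but this sum joins opposite moves. Tnnt3 had 4.18 in TAM 2 and 5.66 to 47.9 elsewhere, whereas Chrna1 had 24.3 in TAM 2 and 2.84 to 11.4 elsewhere. With 11 of the 14 markers under 1 c.p.m. in every library, the sum cannot show whether they moved with Acta1. No stretch of 100 bases or more of the 4 muscle actin transcripts matched a protein-coding transcript of another gene at 95% identity. Shorter matches and transcripts that do not code for protein were left out, so reads shared between actin genes were not tested.

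Of the calponin family, Cnn1 (chromosome 9, 21903725 to 21914074) had 856, 523 and 551 normalized counts in the libraries labelled EtOH 1, 2 and 3 and 1080, 6645 and 1749 in those labelled TAM 1, 2 and 3. All TAM values were higher, TAM 1 by little, and the log2 fold change was 1.89 (SE 0.63, adjusted p = 0.270), or 1.13 (SE 0.31) without TAM 2. Tagln (chromosome 9, 45737711 to 45744141) had 15649, 10605 and 9139 in the libraries labelled EtOH and 11943, 40565 and 12165 in those labelled TAM. Its groups overlapped, and its log2 fold change moved from 0.65 (SE 0.50) to 0.069 without TAM 2. The broadly expressed Cnn2, Cnn3 and Tagln2 had log2 fold changes of −0.12, 0.34 and −0.0051, each within its SE of 0.36 to 0.60. Cnn2 was 1 of 2 genes of the list, with Myh10, whose highest value was in the library labelled EtOH 1, at 16464 normalized counts. Tagln2 had 2439, 3171 and 2013 in the libraries labelled EtOH and 1565, 7046 and 1397 in those labelled TAM, so TAM 1 and 3 lay below all EtOH values and TAM 2 above them.

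Tropomyosins wind along the actin filament, and all 3 on the list had their highest value in the library labelled TAM 2. Tpm1 had 19188, 8254 and 10579 normalized counts in the libraries labelled EtOH and 11754, 39173 and 13420 in those labelled TAM (log2 fold change 0.63, SE 0.52). For Tpm2 and Tpm4 the log2 fold changes were 0.72 (SE 0.40) and 0.13 (SE 0.46). Among the other proteins of the filament, Lmod1, which starts new actin filaments in smooth muscle, had 2479, 758 and 713 normalized counts in the libraries labelled EtOH and 1510, 4875 and 1714 in those labelled TAM. For Lmod1 the estimate was 1.08 on the log2 scale (SE 0.61), its EtOH 1 value lying above TAM 1 and TAM 3. Cald1, caldesmon, had 0.65 (SE 0.36), with means of 18957 ± 7603 (SD, n = 3) and 28549 ± 6846 (SD, n = 3). Smtn, smoothelin, had 0.12 (SE 0.37), and genes on the other strand overlap up to 16.3% of its exon bases.

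The crosslinkers and adhesion genes had overlapping groups throughout. Actn1, an α-actinin, had 8527, 5285 and 4266 normalized counts in the libraries labelled EtOH and 5941, 20501 and 6433 in those labelled TAM, a log2 fold change of 0.68 (SE 0.51) that came to 0.10 without TAM 2. For Actn4 and Flna, filamin A, it was 0.29 (SE 0.37) and 0.32 (SE 0.43). Synpo2, an actin-bundling protein of muscle, was highest in the library labelled TAM 3, with 303, 109 and 395 normalized counts in the libraries labelled EtOH and 251, 412 and 755 in those labelled TAM (log2 fold change 0.86, SE 0.57). On the log2 scale Csrp1, a LIM protein, differed by 0.78 (SE 0.47), Vcl, vinculin, 0.50 (SE 0.46), Pdlim7 0.24 (SE 0.30) and Zyx, zyxin, −0.28 (SE 0.38), the lowest of the list. The exons of Ap3m1 on the other strand overlap 39.9% of the exon bases of Vcl, and the strand setting of the counting is not given in the sources used here.

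Of the transcription factor and its cofactors, Srf (chromosome 17, 46683788 to 46693111) had 1680, 838 and 646 normalized counts in the libraries labelled EtOH 1, 2 and 3 and 1118, 1981 and 810 in those labelled TAM. It was highest in TAM 2 and next in EtOH 1, with a log2 fold change of 0.33 (SE 0.44). Mkl1 had 1321, 1330 and 1183 in the libraries labelled EtOH and 1257, 2184 and 1685 in those labelled TAM (log2 fold change 0.38, SE 0.23). Mkl2 ran the other way, with 980 normalized counts in TAM 2, its lowest value, against 1100 to 1552 in the other 5 libraries (log2 fold change 0.082, SE 0.21). The 8 tested genes with a CArG box of up to 1 mismatch had log2 fold changes from −0.15 to 1.70 with a median of 0.44. The 20 with a promoter but no box ran from −0.28 to 1.89 with a median of 0.49, so the ranges of both sets overlapped. None of the 4 genes whose groups did not overlap was among those with a box, but 2 of them, Actg2 and Myh11, had no promoter entry. For Mylk only 1 start was searched.

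Lists of 77 further genes of actin turnover, myosins, adhesion and SRF regulation were looked at beside the contractile genes. Of these, 74 were tested, none was called in either direction without the block (0.168% of all genes higher and 0.0758% lower), and 1 was lower with it (0.615% of all genes). At an unadjusted p under 0.05, 6 were higher and 5 lower without the block, and 8 and 5 with it, beside 6.67% and 6.70% of all genes without the block and 8.64% and 8.32% with it. Their median log2 fold change was 0.10. The gene lower with the block was Csrp2, a LIM protein of smooth muscle related to Csrp1. It had 2689, 3802 and 4822 normalized counts in the libraries labelled EtOH 1, 2 and 3 and 247, 330 and 860 in those labelled TAM, so all TAM values lay far below. On the log2 scale this came to −3.15 (SE 0.47, adjusted p = 0.0621), and under the block, which left SE at 0.25, the adjusted p was 0.0184. The estimate for Csrp1 was 0.78 (SE 0.47, adjusted p = 0.534, limma) with overlapping groups, and 0.33 without TAM 2. In the list of 30 tested adhesion and LIM genes the median was 0.37, and Ldb3, a PDZ-LIM protein of the muscle Z-disc, had 54.0, 25.7 and 20.2 against 83.0, 204 and 89.1 normalized counts (log2 fold change 1.88, SE 0.50, adjusted p = 0.202).

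Among 25 actin turnover genes, which include Actb and Actg1, the median log2 fold change was 0.051. Pfn2, a profilin, had 0.55 (SE 0.18, adjusted p = 0.268) and Gsn, the filament-severing gelsolin, −1.25 (SE 0.42, adjusted p = 0.273). Among 9 further myosin and tropomyosin genes the median was 0.22, with Myo10 at 0.68 (SE 0.24, adjusted p = 0.295) and Myh14 at −1.48 (SE 0.64, adjusted p = 0.382). Among 10 ternary complex factors and regulators of the Mkl proteins it was −0.16. Phactr2 had −1.27 (SE 0.42, adjusted p = 0.268). Mical2, an enzyme that oxidizes actin, had 1479, 3158 and 815 normalized counts in the libraries labelled EtOH and 2487, 8539 and 3136 in those labelled TAM (log2 fold change 1.38, SE 0.60, adjusted p = 0.388). Mical2 was thus higher in the TAM library of all 3 pairs, and its adjusted p with the block was 0.0878.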

How the data were processed

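Poly(A) RNA of 6 MSF libraries was analysed, 3 labelled TAM and 3 labelled EtOH. Upstream, the authors aligned reads against mm9 (TopHat), counted them per RefSeq gene (htseq-count) and normalized by TMM in edgeR, with versions not given in the sources used here. The signal deposited by the authors is 1 table that gives normalized counts for each gene in each library. Its values are mostly not whole and its scaling is not named, so they were not used as read counts and no counting intervals were computed. The table also holds the locus of each gene, which for Myh10 and Mkl1 covers 6.2 and 8.3% of the annotated gene and for Smtn, Mylk and Tpm4 45.1, 51.6 and 53.6%.

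Groups and replicate numbers were taken from the labels. All genes with at least 1 c.p.m. (16.2 normalized counts) in at least 3 libraries were fitted in R 4.3.3 with limma 3.58.1 and an intensity trend on log2(value + 1), TAM minus EtOH. Fold changes on this scale understate the change of low genes. A gene was called where its p, adjusted over all genes tested by Benjamini-Hochberg, was under 0.05. Libraries with the same number deviated together from the means of their groups (r across genes 0.24, 0.29 and 0.42 for replicates 1, 2 and 3), while between other numbers r ranged from −0.31 to 0.04, so the numbers were taken to pair the libraries, as a hint from the data and not from the labels. An exact permutation test of 3 against 3 libraries cannot go below p = 0.1 and was not used. Exon lengths, overlaps and positions were taken from the mm9 annotation, and promoters are RefSeq sequences of GRCm38.p6. Protein-coding transcripts were compared with BLAST 2.17.0 at 95% identity over at least 100 bases. Figures were drawn with Python 3.11.15 and matplotlib 3.10.9. The genes and lists were chosen with earlier results of these data known. The text names all 34 listed genes, the targeted gene, the called or otherwise the 2 genes with the smallest p of each pathway list (1 further list is not reported here), and the highest gene of each marker list. Alternatives were other scalings, filters and pseudocounts, the replicate block, library weights and leaving out each library.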

Additional observations from a re-analysis of the deposited data

How the results depend on the processing

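No contractile gene was called under library size scaling, median-ratio scaling, either filter on low values, pseudocounts of 0.1 or 10, the replicate block or with any 1 library left out. The replicate block changed no call of a contractile gene, and in the pathway lists it gave 1 call (Csrp2) and among the cell type markers that of Kdr. Weighting each library by its fit gave weights of 0.288 to the library labelled TAM 2, 0.292 to EtOH 2 and 4.06 to TAM 3. It called 2 of the 31 contractile genes higher, Mylk (log2 fold change 1.98, adjusted p = 0.0245) and Myh11 (1.51, adjusted p = 0.0341), beside 386 of all 11877 genes tested. At an unadjusted p under 0.05 it left 5 contractile genes higher. Without weights 4 were higher at an unadjusted p under 0.05, against 2 with no filter (Mylk and Myh11) and 2 to 9 with 1 library left out, the fewest without EtOH 2 and the most without EtOH 1. Over all genes, calls numbered 20 higher and 9 lower, against 119 and 73 with the block, 386 and 356 with weights, 45 and 3 with no filter, 14 and 4 with at least 10 in every library, and 0 to 6 and 0 to 9 with 1 library left out. The median log2 fold change of the list lay between 0.10 and 0.92 when each library was left out. Library size scaling moved the median of all genes from −0.033 to 0.078. Signs turned only for genes not called. Tagln2 turned to 0.11 and 0.014 under library size and median-ratio scaling. With library weights Acta2 turned to −0.14, Cnn3 to −0.034, Myl9 to −0.022, Myh10 to −0.28, Tpm4 to −0.22, Actn4 to −0.012, Flna to −0.20 and Srf to −0.16. Log2 fold changes that turned when 1 library was left out ranged as follows, Acta2 (−0.038 to 1.01), Acta1 (−0.049 to 2.77), Tagln2 (−0.76 to 0.41), Cnn2 (−0.55 to 0.29), Myl6 (−0.46 to 0.23), Myh10 (−0.25 to 0.23), Tpm4 (−0.35 to 0.39), Smtn (−0.23 to 0.37), Actn4 (−0.10 to 0.50), Flna (−0.013 to 0.64), Pdlim7 (−0.026 to 0.43), Srf (−0.026 to 0.72) and Mkl2 (−0.065 to 0.27). Groups of 3 libraries and unknown read totals limit the precision.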
